A study of Mus musculus with 17 samples.

Results

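Kidney macrophages were examined in cells that had been sorted from mouse kidney for a green fluorescent protein (GFP) reporter and sequenced singly in droplets with 10x 3′ v3 chemistry. Of the 17 libraries of the series, 9 were kidney and 8 were skin, and the skin libraries were not used here. A kidney cell was kept when at least 200 genes were detected and at most 20% of its unique molecular identifiers (UMIs, 1 per captured transcript) came from mitochondrial genes. A kept cell was called a macrophage when C1qa, C1qb and C1qc together had at least 5 UMIs, Csf1r, Cd68 and Adgre1 together had at least 1 UMI, and Cd3d, Cd3e and Cd3g together had 0. The members were thus chosen by their own measured levels of these genes, which are given below as a description only. This left 5758 macrophages among 61744 kept kidney cells (9.33%), out of 75562 deposited barcodes.

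All mice were 8 weeks old and carried PDGFRb-Cre together with the Z/EG reporter, which switches on GFP after Cre recombination. SARATg mice also carried a human SARA (ZFYVE9) cDNA behind a floxed stop, and SARAWT mice did not. SARA is an endosomal protein that binds SMAD proteins. Mice received either vehicle or aristolochic acid (AA, a plant nephrotoxin taken up by tubule cells) by intraperitoneal injection, at 5 mg/kg, 3 times a week for 3 weeks. The kidney groups held 3 SARAWT vehicle, 3 SARAWT AA, 2 SARATg vehicle and 1 SARATg AA libraries. The sorted cells were labelled PDGFRb+GFP+. Cre driven by PDGFRb also recombines in blood-derived cells, so neither the reporter nor the transgene is limited to pericytes, and Pdgfrb itself read at most 1.85 CPM (a normalised level explained below) in the macrophages. No source said whether the libraries of a group came from separate mice, so p-values measure the spread between libraries only.

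Macrophages of the kidney lie between the tubules, where they clear debris and dying cells, present antigen on class II molecules and make C1q, the first component of the classical complement pathway. Resident cells are kept by the CSF1 receptor, and blood monocytes that express Ccr2 add to them after injury. Macrophages that take up lipid-rich debris are known to switch on a set of lysosomal and lipid genes around the receptor Trem2.

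Levels are given throughout as CPM, the UMIs of a gene per 1000000 UMIs summed over the macrophages of a library. C1qa ranged from 3352 to 6882 CPM across the 9 libraries, against 1.14 to 442 CPM in the other kept cells of the same libraries. Csf1r, the growth factor receptor, ranged from 377 to 649 CPM. Adgre1, which encodes F4/80, ranged from 169 to 303 CPM. Of genes that the rule did not use, Ptprc (CD45, the pan-leukocyte antigen) had a UMI in 85.4% to 96.5% of the macrophages of each library.

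At the edge of the rule, 32 cells with a C1q sum of exactly 5 UMIs had a median of 11039.5 UMIs, and 30 cells just outside with a sum of 4 had a median of 9809.5. A further 875 cells passed on C1q but were removed for a Cd3 UMI, and their median was 15810 UMIs. Another 81 lacked any Csf1r, Cd68 or Adgre1 UMI. Among the members, 404 carried a high doublet score and 118 shared a barcode with a cell of another kidney library.

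Several libraries stood apart or went against their labels, and every result below rests on them. Zfyve9, the mouse SARA gene at chr4:108637466-108780798 in GRCm38, read 29.6, 20.9 and 4.83 CPM in macrophages of SARAWT vehicle 1, 2 and 3, and 162, 9.98 and 9.88 CPM in SARAWT AA 1, 2 and 3. It read 115 and 99.1 CPM in SARATg vehicle 1 and 2 and 9.31 CPM in SARATg AA 1. The libraries labelled SARAWT AA 1 and SARATg AA 1 therefore went against their genotype labels, in the macrophages and also over all kept cells (163 and 20.6 CPM). The transgene is a human cDNA, and how its reads were assigned to the mouse gene was not tested.

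The library labelled SARAWT vehicle 3 stood with the AA libraries. Over 5567 genes its macrophage profile correlated with SARAWT AA 1 at r = 0.973 and with SARAWT vehicle 1 and 2 at r = 0.766 and 0.812, which is a description across genes, since genes are not independent replicates. Xist, the RNA of the inactive X chromosome, read 838 CPM in SARAWT vehicle 2 and 818 CPM in SARATg AA 1 and at most 0.26 CPM in the other 7 libraries, and the Y-linked Ddx3y read 0 and 0.077 CPM in those 2 libraries and 37.3 to 69.4 CPM in the other 7, so sex was unequal between groups.

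RNA of other cells also moved with the groups. The summed level of 24 proximal tubule genes in the macrophages was 28079, 10592 and 2495 CPM in SARAWT vehicle 1, 2 and 3, and 985, 5238 and 719 CPM in SARAWT AA 1, 2 and 3, and none of the 24 was at 0 in all libraries. It was 12926 and 15924 CPM in the SARATg vehicle libraries and 1556 CPM in SARATg AA 1. B cell genes summed to between 398 and 8666 CPM, neutrophil genes to between 68.8 and 1523 CPM, and T cell genes, with the Cd3 genes at 0 by the rule, to between 20.8 and 65.0 CPM. Depth differed as well, from a median of 4047.5 UMIs per macrophage in SARATg vehicle 1 to 17137 in SARAWT AA 3, on library totals of 28660151 to 137093834 UMIs. The part of tubule RNA, sex and depth in the results below was not tested beyond the values given beside each.

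The macrophages made up 3.22%, 5.15% and 13.7% of kept cells in SARAWT vehicle 1, 2 and 3 and 11.1%, 3.15% and 5.48% in SARAWT AA 1, 2 and 3. The widest exact binomial 95% interval within these, for counting error only, was 12.9% to 14.6% in SARAWT vehicle 3, so the libraries of each group differed by more than counting error. The groups overlapped, at 7.37% ± 5.59 (SD, n = 3) for vehicle and 6.57% ± 4.07 (SD, n = 3) for AA (exact permutation over libraries, two-sided, p = 0.8, where 0.1 is the smallest possible). Without the library labelled SARAWT vehicle 3 the difference changed sign, from -0.799 to 2.38 percentage points. The share was 10.6% and 10.8% in the SARATg vehicle libraries and 20.3% (19.4% to 21.2%) in SARATg AA 1, the highest of the 9.

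Among leukocytes the picture was different. The sorted cells held from 14.5% to 84.7% Ptprc-positive cells, so the macrophage share of all cells depends on how many leukocytes passed the gate. Ptprc-positive cells were 14.5%, 18.0% and 75.2% in SARAWT vehicle 1, 2 and 3 and 84.2%, 62.0% and 84.7% in SARAWT AA 1, 2 and 3. They were 52.8% and 53.4% in the SARATg vehicle libraries and 68.4% in SARATg AA 1. The leukocyte total under the shares below thus differed between libraries as well. As a share of Ptprc-positive cells, macrophages were 21.5%, 27.2% and 16.8% in SARAWT vehicle 1, 2 and 3 and 12.5%, 4.43% and 6.07% in SARAWT AA 1, 2 and 3. All 3 AA values lay below all 3 vehicle values, with means of 7.67% ± 4.27 and 21.8% ± 5.24 (SD, n = 3 each; exact permutation p = 0.1, the smallest this design allows). The SARATg vehicle libraries stood at 18.6% and 17.2% and SARATg AA 1 at 25.6%. The 875 cells that passed on C1q but were removed for a Cd3 UMI are not counted as macrophages in these shares. Their number in each library was not taken, and their part in the differences was not tested.

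**Figure D1:**
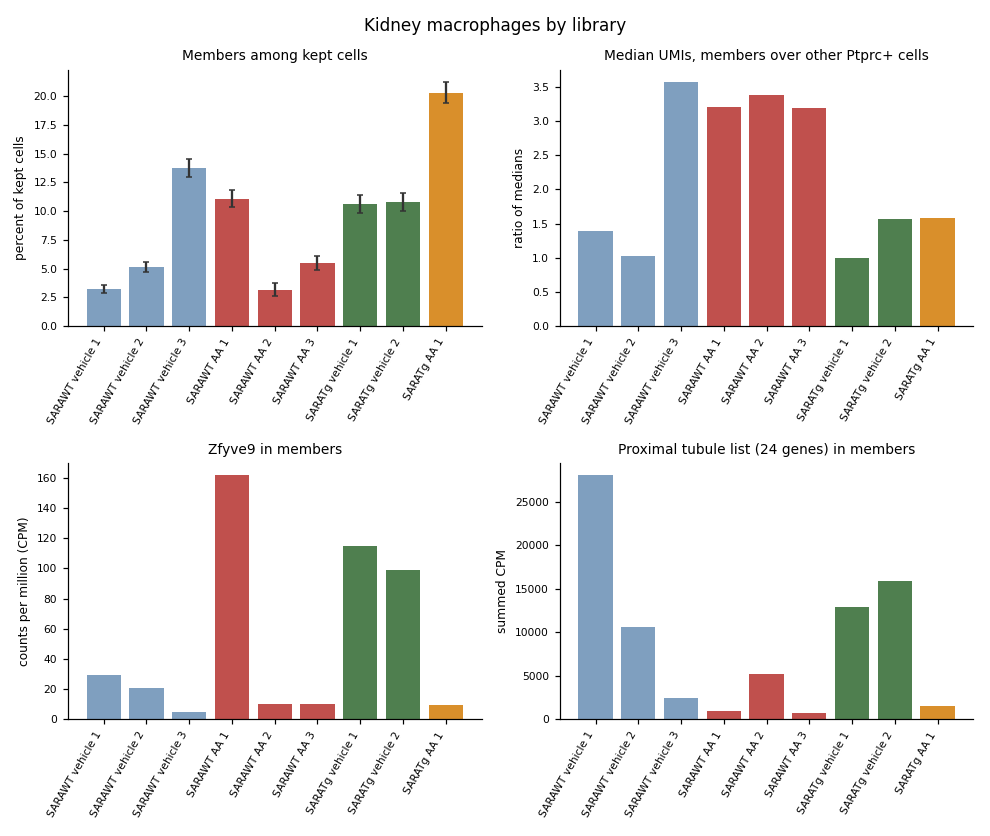
Bars for each of the 9 libraries, coloured by group, give macrophages as a percent of kept cells (error bars, exact binomial 95% interval), the ratio of median UMIs of macrophages to those of other Ptprc-positive cells, Zfyve9 in CPM and the summed CPM of 24 proximal tubule genes. The UMI ratio is 3.57 in SARAWT vehicle 3 and 3.19 to 3.38 in the SARAWT AA libraries, against 0.997 to 1.59 in the others, and Zfyve9 is high in SARAWT AA 1 and low in SARATg AA 1.

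The main comparison asked how macrophages of SARAWT kidneys differed after AA. With all 6 SARAWT libraries, 0 of 11050 genes were called at an adjusted p under 0.05 (edgeR's quasi-likelihood test with Benjamini-Hochberg adjustment, 0% called), 1069 passed an unadjusted p of 0.05, and DESeq2 called 69 (0.624%), 17 of them higher (0.154%) and 52 lower (0.471%). The libraries of both groups did not overlap for 1398 genes (12.7%). There are only 20 ways to divide these libraries into groups of 3, so genes often separate by arrangement alone. Trem2 and Spp1 were among those whose 3 AA libraries all lay above the 3 vehicle libraries, and Mmp13 among those that lay below. Of the 25 tested genes of the lipid and Trem2 list 4 were apart in this way, all higher (Trem2, Spp1, Abca1 and Soat1), a share close to that of all genes.

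Leaving out the library labelled SARAWT vehicle 3 changed this. Naming genes from this fit was chosen after its macrophages had been seen to stand with the AA libraries, so the calls that follow compare 3 AA libraries with the 2 vehicle libraries that differ most from them, and their p-values are too small to that extent. In this fit 1473 of 11158 genes were called (13.2%), 706 higher (6.33%) and 767 lower (6.87%) after AA. The calls depended on which library was left out: 34 were called without SARAWT AA 1, 2159 without SARAWT AA 2 and 0 without SARAWT AA 3. Fits without SARAWT vehicle 1 or 2 keep 1 vehicle library, so their counts are not given. Each of these fits also has fewer libraries, and the part of that in the counts was not tested. Without predicted doublets 654 were called, 371 higher and 283 lower, and doublets were marked among 13.4% and 12.5% of the macrophages of SARAWT vehicle 1 and 2 but among 6.67%, 3.17% and 0.345% of those of SARAWT AA 1, 2 and 3 (5.04% in SARAWT vehicle 3). With Xist-positive libraries as a covariate 149 were called. That covariate marks SARAWT vehicle 2 alone in this fit, so it is no separate adjustment for sex. With library totals alone in place of TMM scaling the split was 481 higher and 1111 lower. In these sums, fewer macrophages of a state and less RNA per cell cannot be told apart. Below, rose and fell refer to genes called in this fit, and edgeR called none of these genes with all 6 SARAWT libraries. The share called over all genes in this fit, 6.33% higher and 6.87% lower, is the background for each count of list members that follows. Among the 3992 tested genes at least as high in macrophages as in the other kept cells, 566 were called higher and 105 lower, a larger share higher and a smaller share lower. A rise itself helps a gene into that class, and scaled and fitted on their own 366 of 3962 such genes were called higher (9.24%). The share higher among class II genes (2 of 14) and proliferation genes (5 of 30) is near 566 of 3992 and above 9.24%. So is that among hypoxia and glycolysis genes (3 of 18) and interferon-stimulated genes (5 of 29). No result is read from these counts. Genes described library by library have the value of SARAWT vehicle 3 beside the others.

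Among called genes with a mean of at least 10 CPM and no overlap between the groups, the 12 largest rises by fitted fold change were AA467197, Gpnmb, Ccl8, Arg1, Pianp, Lyz1, Gdpd3, Ccl7, Il1a, Gpr84, F7 and Serpina3g. The 12 largest falls were Rdh16f2, Hpd, Inmt, Aadat, Eci3, Adh1, Aspdh, Asb9, Hao2, Them7, Acot12 and Bhmt2. Several of the latter are enzymes of the proximal tubule, such as Hpd of tyrosine breakdown, and they moved with the tubule RNA given above: of 24 proximal tubule genes 6 fell and none rose, with a median log2 fold change of -3.26. The counts of list members below come from the fit over all genes. Of the genes named below as called, S100a4, S100a6, Ifitm6, Gas6, Ctsl, Tgm2, Cdkn1a, Nr4a1, Bhlhe40, Zfyve16, Stmn1, Pclaf, Slc40a1, Gclm and Hsph1 had a lower mean CPM in macrophages than in the other kept cells. When genes at least as high in macrophages were scaled and fitted on their own, 366 were called higher (9.24%) and 329 lower (8.3%) of 3962 (17.5% called), against 566 and 105 in the fit over all genes, so the split depends on the scaling.

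Of 23 tested chemokine and receptor genes 9 rose (against 6.33% of all genes) and none fell, with a median log2 fold change of 1.12, against -0.01 over all genes. Ccl8 (ENSMUSG00000009185, chr11:82115185-82116799), a ligand that draws monocytes and T cells, stood at 23.1, 20.3 and 2517 CPM in SARAWT vehicle 1, 2 and 3 and at 2534, 1293 and 1771 CPM in SARAWT AA 1, 2 and 3. In the SARATg libraries Ccl8 stood at 19.3 and 185 CPM with vehicle and at 915 CPM with AA. Its values thus fell apart into 3 low libraries, 1 between and 5 high ones, and without SARAWT vehicle 3 its log2 fold change was 6.57 ± 0.39 (SE; adjusted p = 0.00786, edgeR). With that library it was 1.03 ± 1.66 (adjusted p = 0.824, edgeR).

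Ccl2 and Ccl7, the main ligands of Ccr2, lie beside Ccl8 on chromosome 11. Ccl2 read 26.4, 29.7 and 261 CPM in the SARAWT vehicle libraries, 284, 175 and 361 CPM in the SARAWT AA libraries, 10.7 and 129 CPM in the SARATg vehicle libraries and 314 CPM in SARATg AA 1 (log2 fold change 3.43 ± 0.35, SE). Ccl7 read 8.33, 7.06 and 209 CPM, 292, 56.7 and 186 CPM, 7.22 and 97.0 CPM, and 198 CPM in the same order (4.69 ± 0.77). SARATg vehicle 2 lay between the low and the high libraries for Ccl8 and Ccl2, and above SARAWT AA 2 for Ccl7. Ccl6, Ccl9 and Ccl12, the CXCR3 ligands Cxcl9 and Cxcl10, and the receptor Ccr1 also rose, by 2.29 to 2.90 on the log2 scale.

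The receptor Ccr2 itself was not called. It stood at 542, 290 and 221 CPM in the SARAWT vehicle libraries and at 409, 235 and 397 CPM in the SARAWT AA libraries, with a log2 fold change of -0.12 ± 0.34 (SE). Ly6c2, a marker of classical monocytes, read 3.74 to 35.2 CPM across the 9 libraries and was not called either. The interval about the Ccr2 change does not show that its level was equal.

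Lipid handling and the Trem2 programme had 15 of 25 tested genes that rose, none that fell, and a median log2 fold change of 1.49. Trem2 (ENSMUSG00000023992, chr17:48346401-48354147), a receptor for lipids and apolipoproteins, read 9.71, 39.1 and 298 CPM in SARAWT vehicle 1, 2 and 3 and 311, 372 and 400 CPM in SARAWT AA 1, 2 and 3. In the SARATg libraries Trem2 read 38.4 and 86.5 CPM with vehicle and 229 CPM with AA. Vehicle 3 thus came closer to the AA libraries than to the other vehicle libraries, yet the 3 AA libraries were the highest of the 9. The log2 fold change was 4.0 ± 0.59 (SE; adjusted p = 0.0232, edgeR) without that library and 1.57 ± 1.09 (adjusted p = 0.595) with it.

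Gpnmb, a lysosomal glycoprotein of lipid-laden macrophages, had 2 UMIs in total in SARAWT vehicle 1 and 2 and 1139 in the AA libraries, a ratio of levels of 172 (exact interval for counting error 47.6 to 1423). In SARAWT vehicle 3 Gpnmb read 51.3 CPM, within the 47.3 to 90.1 CPM of the AA libraries, and in SARATg AA 1 22.3 CPM, against 0 and 0.377 CPM in the SARATg vehicle libraries. Fabp5, a fatty acid carrier, read 34.7, 33.8 and 406 CPM in the SARAWT vehicle libraries and 353, 281 and 379 CPM in the SARAWT AA libraries (3.45 ± 0.20; adjusted p = 0.00786, edgeR). Fabp5 repeated the pattern in SARATg, at 32.3 and 75.7 CPM with vehicle and 217 CPM with AA.

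The lysosomal proteases moved with them. Ctsd (ENSMUSG00000007891, chr7:142375911-142388038), an aspartic protease, read 183, 211 and 1457 CPM in the SARAWT vehicle libraries, 1234, 1686 and 1660 CPM in the SARAWT AA libraries, 144 and 243 CPM in the SARATg vehicle libraries and 684 CPM in SARATg AA 1. Its log2 fold change was 3.1 ± 0.23 (SE), and Ctsb and Ctsl, cysteine proteases of the same compartment, rose by 1.49 and 1.55. Apoe, the apolipoprotein that carries cholesterol out of macrophages, was the most abundant gene of the list, at 6894, 9147 and 25927 CPM and then 18289, 37326 and 24998 CPM in the SARAWT libraries, and rose by 1.90 ± 0.34. Abca1, the cholesterol exporter, rose by 1.72 ± 0.27.

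Lipid genes did not all move together. Lpl, lipoprotein lipase, had a log2 fold change of -0.01 ± 0.64, and Cd36, a fatty acid translocase, one of -1.05 ± 0.28 (adjusted p = 0.0572, edgeR), so neither was called. Spp1 (osteopontin), which injured tubules also make, read 36.1, 348 and 1379 CPM in the SARAWT vehicle libraries and 1991, 1500 and 1675 CPM in the SARAWT AA libraries. Spp1 was not called (3.30 ± 0.90, adjusted p = 0.0608), and it reached 3356 CPM in the other kept cells of a library.

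The core letters CACGTG, read by basic helix-loop-helix factors that include regulators of lysosomal genes, were looked for in the 250 bases before the start of each gene in the RefSeq promoter table. The 6 letters are the same on both strands. They were found in 4 of 19 lipid and Trem2 genes with an entry (21.1%) and in 1854 of all 27025 genes of the table (6.86%, GRCm38.p6), and in 1 of 17 chemokine genes (5.88%). The 3 that also rose were Ctsd, Ctsl and Abca1, while Nceh1 had the letters and was not called (log2 fold change 0.07 ± 0.28). The stretches around the letters in the 3 rising genes are printed 5′ to 3′ on the gene's strand, with the match in capitals, to let the promoters be compared. The RefSeq start of Ctsd lies inside the GENCODE interval given above, so by the GENCODE start the Ctsd stretch is within the gene.
Ctsd, chr7:142387893-142387952, minus strand: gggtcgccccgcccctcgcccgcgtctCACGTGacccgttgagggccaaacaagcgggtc
Ctsl, chr13:64370724-64370770, minus strand: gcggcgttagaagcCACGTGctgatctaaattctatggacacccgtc
Abca1, chr4:53160010-53160069, minus strand: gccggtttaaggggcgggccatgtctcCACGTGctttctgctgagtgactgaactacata
A match describes these letters only and is no evidence of a bound factor.

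**Figure D2:**
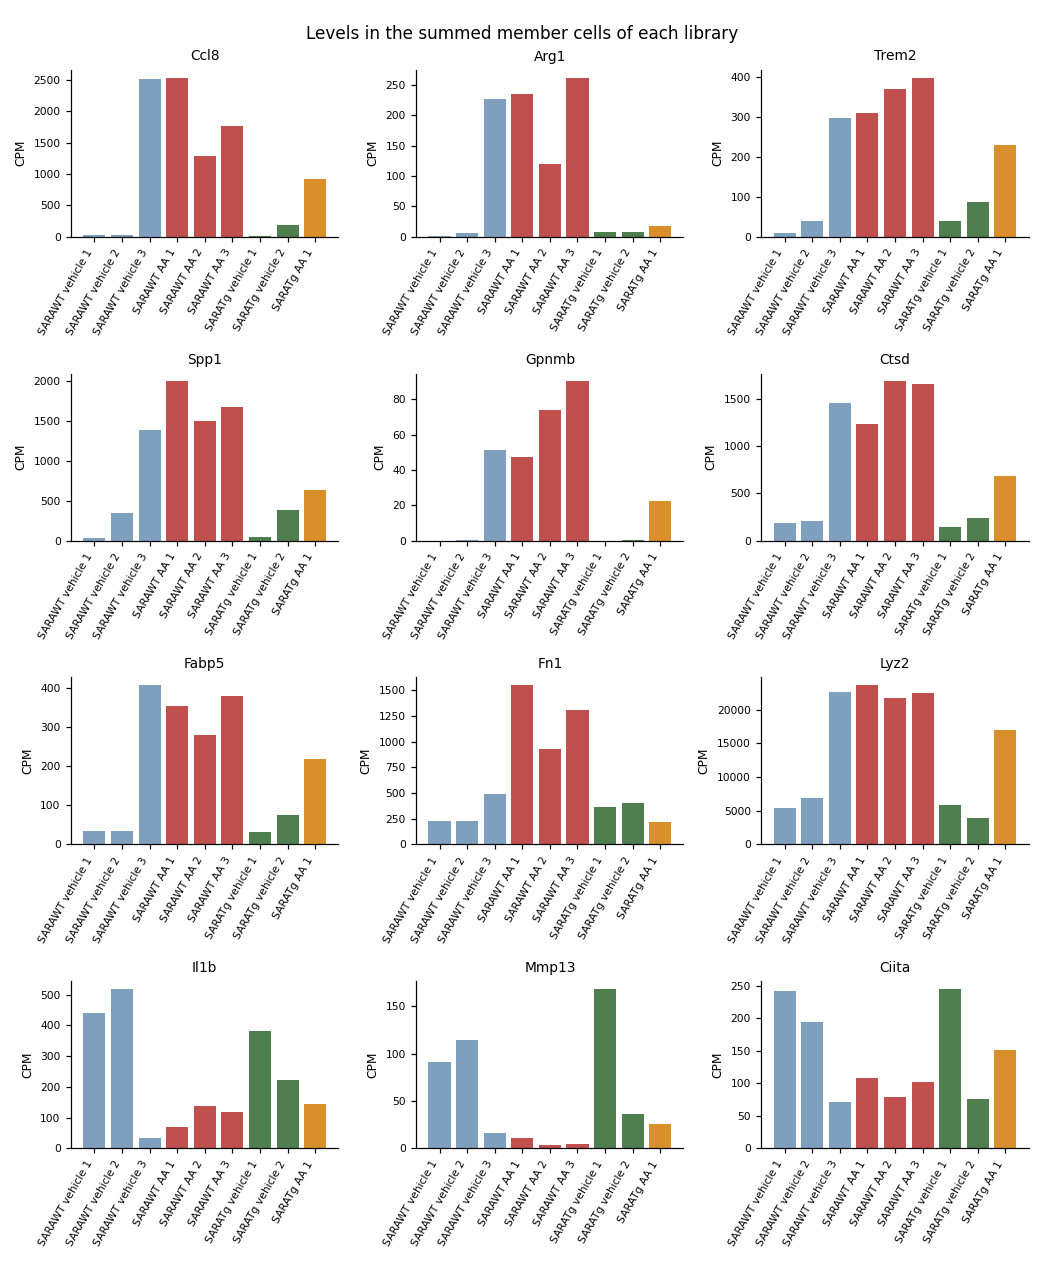
Bars on linear axes from 0 give CPM in the summed macrophages of each library, coloured by group, for Ccl8, Arg1, Trem2, Spp1, Gpnmb, Ctsd, Fabp5, Fn1, Lyz2, Il1b, Mmp13 and Ciita. Ccl8, Arg1, Trem2 and Ctsd are high in the SARAWT AA libraries and in SARAWT vehicle 3, and Il1b and Mmp13 are low there.

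Arg1, the arginase of alternatively activated macrophages, showed one of the widest gaps. It stood at 0.925, 5.59 and 226 CPM in SARAWT vehicle 1, 2 and 3 and at 236, 120 and 262 CPM in SARAWT AA 1, 2 and 3, a log2 fold change of 5.98 ± 0.68 (SE; adjusted p = 0.0189, edgeR). In SARATg AA 1 Arg1 read 17.6 CPM, beside 7.51 and 6.97 CPM in the SARATg vehicle libraries. Of the 13 tested genes of alternative activation 4 rose (Arg1, Cd163, Tgm2 and the receptor chain Il4ra) and none fell. Mrc1, the mannose receptor, was not called, at 275, 200 and 390 CPM with vehicle and 387, 289 and 341 CPM with AA.

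Of 18 phagocytic receptors and TAM-axis genes 8 rose and none fell (median log2 fold change 1.26). Mertk, a receptor that engages dying cells through Gas6, read 7.86, 8.82 and 68.0 CPM in the SARAWT vehicle libraries and 69.7, 26.8 and 40.5 CPM in the SARAWT AA libraries (2.62 ± 0.45). Gas6, Axl, Lrp1, Msr1, Itgb5, Scarb2 and Cd300lb were the others. Of 14 complement and Fc receptor genes outside the rule 5 rose and none fell, among them C3 (3.39 ± 0.58), Cfp, the properdin that stabilises the alternative pathway (2.41 ± 0.37), and C4b.

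Of 20 monocyte-derived genes 9 rose and none fell (median 1.49), with Fn1, Lyz2, S100a4, S100a6 and Ifitm6 among them. Of these, S100a4, S100a6 and Ifitm6 had higher means in the other kept cells, at 263, 788 and 63.4 CPM against 229, 443 and 57.8 CPM in macrophages. Fn1 (ENSMUSG00000026193, chr1:71585520-71653200), the matrix protein fibronectin, read 232, 230 and 494 CPM in the SARAWT vehicle libraries, 1546, 924 and 1307 CPM in the SARAWT AA libraries, and 217 CPM in SARATg AA 1, below the 362 and 404 CPM of the SARATg vehicle libraries. SARAWT vehicle 3 thus lay between the other vehicle libraries and the AA libraries for Fn1. Lyz2, lysozyme, rose by 2.04 ± 0.16, from 5345 and 6849 CPM (22631 CPM in SARAWT vehicle 3) to between 21683 and 23591 CPM, although reads of Lyz2 and of its near copy Lyz1 may be split unevenly by the authors' counting.

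Of 15 genes of resident perivascular macrophages 5 rose and none fell. Lyve1, a hyaluronan receptor, stood at 27.3, 15.9 and 25.7 CPM in the SARAWT vehicle libraries and at 52.7, 53.6 and 89.0 CPM in the SARAWT AA libraries, without overlap and with SARAWT vehicle 3 among the vehicle libraries. Folr2, Cd163 and F13a1 followed the same order, and Gas6 was the remaining one. Vsig4, a complement receptor of the same list, lay the other way without overlap, at 23.6, 16.8 and 23.3 CPM with vehicle and 3.90, 0 and 8.55 CPM with AA, and was not called (-1.92 ± 0.73). With all 6 libraries 4 of the 15 genes were thus apart higher and 1 lower, where 12.7% of all genes were apart. In SARATg the order was different for Lyve1, at 0 and 68.8 CPM with vehicle and 4.16 CPM with AA. After thinning, Cd163 was seen there in 1.12% and 3.45% of macrophages with vehicle and 0.667% with AA. Folr2 was seen in 0% and 3.29% with vehicle and 3.40% with AA. The change of these genes was not called with all 6 libraries (Lyve1 1.54 ± 0.32, adjusted p = 0.503, edgeR).

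Matrix genes were mixed. Of 24 tested growth factor and matrix genes 8 rose and 1 fell (median 1.11). Mmp14, a membrane collagenase, and Adam8 rose by 2.93 ± 0.48 and 3.55 ± 0.42. Mmp13 (ENSMUSG00000050578, chr9:7272514-7283331), an interstitial collagenase, was the 1 that fell, from 91.1 and 114 CPM (16.3 CPM in SARAWT vehicle 3) to 11, 3.74 and 4.56 CPM, a log2 fold change of -3.69 ± 0.41 (adjusted p = 0.0189, edgeR). It was also lower with SARAWT vehicle 3 in the fit (-3.29 ± 0.74, adjusted p = 0.503). In the SARATg libraries Mmp13 stood at 168 and 36.7 CPM with vehicle and 25.9 CPM with AA. Tgfb1 was not called (0.55 ± 0.19).

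Il1b (ENSMUSG00000027398, chr2:129364570-129371139), the inflammasome cytokine, fell while Il1a rose. Il1b read 440, 517 and 33.7 CPM in SARAWT vehicle 1, 2 and 3, 68.1, 137 and 119 CPM in SARAWT AA 1, 2 and 3, 381 and 224 CPM in the SARATg vehicle libraries and 145 CPM in SARATg AA 1 (log2 fold change -2.01 ± 0.31). SARAWT vehicle 3 was the lowest of the 9 for Il1b. Il1a, at low levels, read 0.925, 0.588 and 7.28 CPM with vehicle and 11.4, 23.7 and 16.9 CPM with AA (4.62 ± 0.57). Of 15 inflammatory genes 3 rose (Il1a, Osm and Clec4e) and 1 fell, and Tnf was not called.

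Beside Mmp13 and Il1b, the 12 largest falls among genes at least as high in macrophages, by the same rule, were Abhd6, St3gal6, Asb2, Stap1, Slc8a1, Clec4b1, Rps6ka5, Lilra5, Galnt12 and Dgkh. Stap1, an adaptor of receptor tyrosine kinases, fell from 148 and 165 CPM to 40.0, 35.5 and 35.2 CPM, and SARAWT vehicle 3 stood below all of these at 32.5 CPM. Clec4b1, a C-type lectin receptor, fell from 329 and 196 CPM (74.6 CPM in SARAWT vehicle 3) to 90.1, 58.0 and 59.3 CPM. In SARATg, Stap1 stood at 229 and 93.3 CPM with vehicle and 89.6 CPM with AA. Clec4b1 stood at 289 and 131 CPM with vehicle and 161 CPM with AA, so there the AA library lay between the vehicle libraries. The 12 largest falls in this class ran from -3.69 to -1.64 on the log2 scale.

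Class I and class II genes differed in their medians. Of 14 class II genes 2 rose (Ctss and Cd40) and 1 fell (Ciita), with a median log2 fold change of -0.15, whereas all 15 class I genes had a log2 fold change above 0, with a median of 0.70. Ciita, the master switch of class II transcription, read 242, 195 and 70.6 CPM in the SARAWT vehicle libraries and 109, 79.2 and 103 CPM in the SARAWT AA libraries (-1.02 ± 0.19). The class II chain H2-Aa read 9385, 8946 and 8943 CPM with vehicle and 8452, 6145 and 5150 CPM with AA. These H2-Aa values did not overlap, but the gene was not called in either fit (-0.33 ± 0.22 without SARAWT vehicle 3). Of the 15 class I genes 4 rose, among them H2-D1 and B2m, and of 29 interferon-stimulated genes 5 rose, while Isg15 (0.36 ± 0.25) was not called.

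Of 24 transcription factors 5 rose and 1 fell, against 6.33% and 6.87% of all genes. Among 3992 genes at least as high in macrophages 566 rose and 105 fell, so no result is read from this count. Of the transcription factors, Cebpb, a factor of myeloid activation, rose by 2.37 ± 0.31, and Cebpa, Klf4, Bhlhe40 and Nr4a1 also rose. Runx1 fell, by 1.03 on the log2 scale. Cdkn1a, a p53 target that stops the cell cycle, rose by 2.00 ± 0.16, within a list of 25 p53 targets of which 5 rose and 2 fell. Immediate early genes, which also respond to tissue digestion, gave 6 rises and 1 fall of 24. Their summed level was 5704, 8106 and 5178 CPM in SARAWT vehicle 1, 2 and 3 and 6263, 5291 and 5883 CPM in SARAWT AA 1, 2 and 3, which overlapped. Single genes did not all overlap: with all 6 libraries 6 of the 24 were apart higher and 2 lower, where 12.7% of all genes were apart. The part of digestion in these results was not tested.

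**Figure D3:**
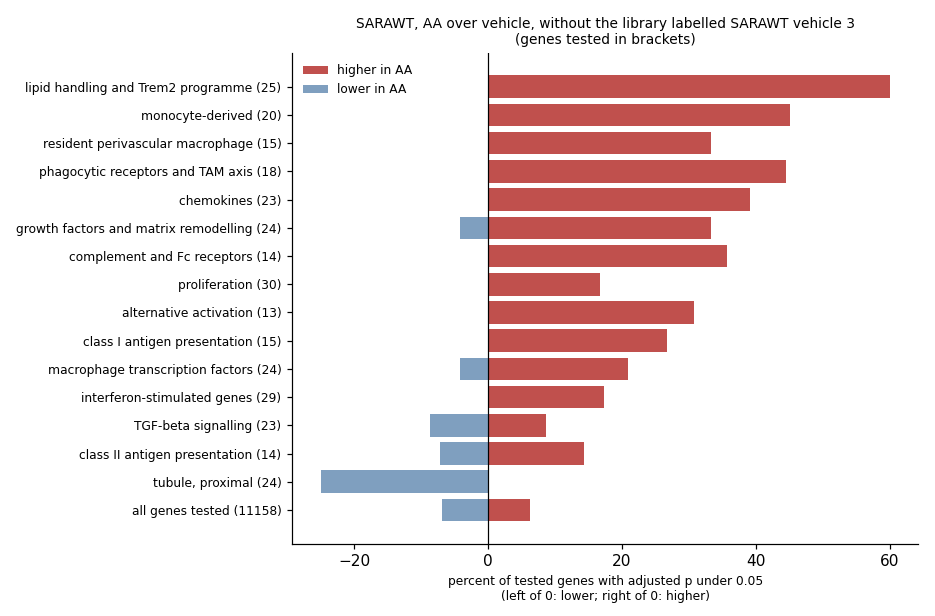
Bars give the percent of tested genes called higher (right of 0) and lower (left of 0) after AA in SARAWT macrophages without the library labelled SARAWT vehicle 3, for 15 gene lists and for all genes tested. The lipid and Trem2 list has 15 of 25 higher, the proximal tubule list 6 of 24 lower, and over all genes 706 of 11158 were higher and 767 lower.

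Shares of cells with a UMI were compared after thinning each cell to 1000 UMIs, since depth differed between libraries. T cells of the same libraries, with at least 2 Cd3 UMIs and no Csf1r, Cd68 or Adgre1 UMI, were set beside them. That rule leaves out T cells that caught these macrophage transcripts. Their shares may thus understate the background from free RNA. Ccl8 was seen in 1.77%, 0.965% and 33.6% of macrophages of SARAWT vehicle 1, 2 and 3, in 34.9%, 16.0% and 24.2% of SARAWT AA 1, 2 and 3, in 0.80% and 2.66% of the SARATg vehicle libraries and in 17.1% of SARATg AA 1. T cells showed Ccl8 in at most 1.09% (SARAWT AA 3), and in each of the 9 libraries their share was below that of the macrophages. Without thinning the Ccl8 shares were 5.63%, 1.35% and 52.0%, then 48.3%, 34.1% and 46.9%, 2.37% and 8.40%, and 29.0%.

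Trem2 behaved alike. It was seen in 1.06%, 2.51% and 16.2% of macrophages in the SARAWT vehicle libraries and in 21.9%, 27.2% and 27.3% in the SARAWT AA libraries (5.63%, 13.3%, 59.2%, 66.8%, 65.1% and 72.8% unthinned), with at most 0.192% in T cells. SARATg stood at 2.88% and 7.52% with vehicle and 15.1% with AA. Il1b went the other way, seen in 35.3% and 34.4% of the macrophages of SARAWT vehicle 1 and 2, in 2.94% of vehicle 3 and in 5.43% to 13.6% of the AA libraries. Spp1 could not be read in this way, since T cells of SARAWT vehicle 2 showed it in 16.5% and the macrophages in 13.3%.

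Levels varied between cells of a library. The lipid and Trem2 genes took a median of 0.772%, 1.24% and 3.41% of each macrophage's UMIs in SARAWT vehicle 1, 2 and 3 and of 2.78%, 4.16% and 3.1% in SARAWT AA 1, 2 and 3. SARAWT AA 1 still had a 10th percentile of 0.640% beside a 90th of 5.99%, beside 10th percentiles of 0.197% and 0.237% in SARAWT vehicle 1 and 2. Mrc1 was seen in 17.7% to 32.6% of macrophages across the 9 libraries after thinning, and Ccr2 in 19.0% to 48.4%. T cells showed Ccr2 in up to 17.7%. Whether that was free RNA or their own was not tested, so they give no clear background for Ccr2.

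**Figure D4:**
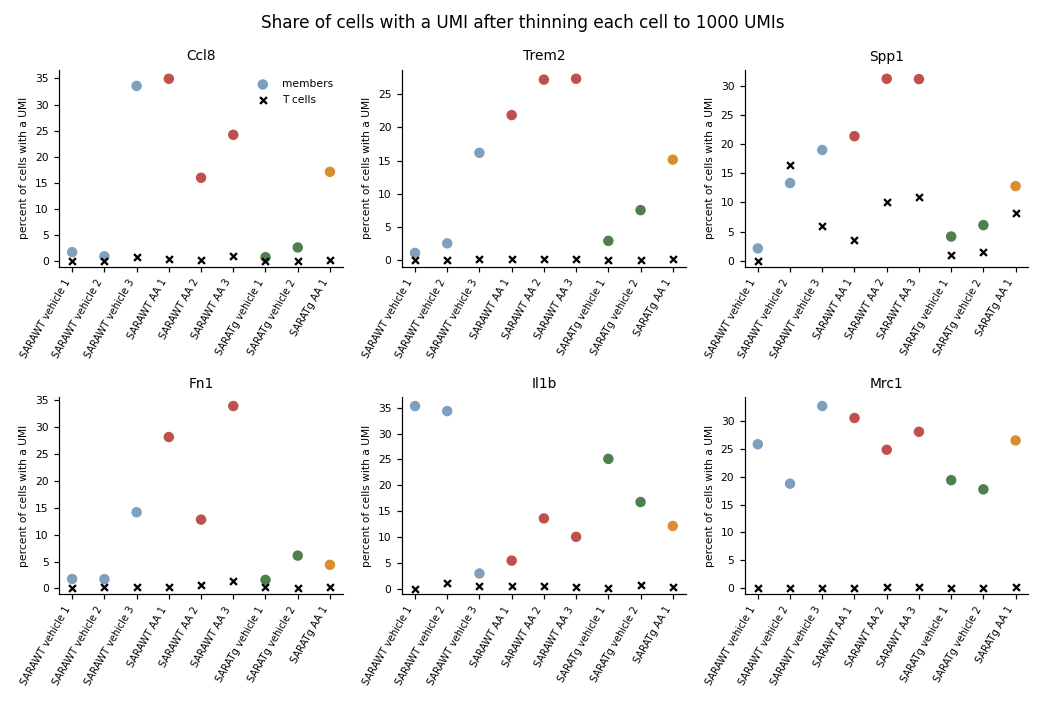
Percent of macrophages (circles, coloured by group) and of T cells (crosses) with a UMI of 6 genes in each library, each cell thinned to 1000 UMIs. Ccl8, Trem2 and Fn1 are rare in SARAWT vehicle 1 and 2 and Il1b is common there, and Spp1 in T cells reaches 16.5%.

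Cycling was measured as the share of macrophages with at least 2 UMIs over 12 proliferation genes after thinning to 1000 UMIs. It was 0.707%, 1.35% and 3.78% in SARAWT vehicle 1, 2 and 3, 3.70%, 3.20% and 3.46% in SARAWT AA 1, 2 and 3, 0.480% and 0.313% in the SARATg vehicle libraries and 4.53% in SARATg AA 1. In the same order these shares rest on 2, 7 and 36 cells, 30, 4 and 10 cells, 3 and 2 cells, and 68 cells. The SARAWT AA 2 share came from 125 macrophages. The SARAWT groups averaged 1.95% ± 1.62 and 3.45% ± 0.252 (SD, n = 3 each; exact permutation p = 0.4). Without SARAWT vehicle 3 the difference was 2.43 percentage points (exact permutation p = 0.1, the smallest possible). That library had the highest share of the SARAWT libraries and was left out after its macrophages had been seen. No result is read from this p-value. Of 30 proliferation genes 5 rose and none fell in the fit without that library: Birc5, Stmn1, Pcna, Tk1 and Pclaf.

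The libraries that the fit without SARAWT vehicle 3 did not use can be set beside its genes. Of the 706 genes that rose, SARAWT vehicle 3 lay on the AA side of the midpoint for 625 (88.5%), SARATg AA 1 for 525 (74.4%), SARATg vehicle 1 for 105 (14.9%) and SARATg vehicle 2 for 222 (31.4%). Of the 767 that fell the counts were 750 (97.8%), 649 (84.6%), 158 (20.6%) and 81 (10.6%), and of the 105 of these at least as high in macrophages they were 103 (98.1%), 69 (65.7%), 7 (6.67%) and 42 (40.0%). SARAWT vehicle 3 had itself been left out for standing with the AA libraries, so its share is a description. No share over all genes was taken for the midpoint, and the class at least as high in macrophages was set over all 9 libraries. In SARATg the AA library lay above both vehicle libraries for 509 of the 706 (72.1%) and for 27.2% of all genes tested, and below both for 678 of the 767 (88.4%), against 46.4% of all genes. Over genes at least as high in macrophages the counts were 441 of 566 (77.9%) above both, against 43.3% of such genes tested, and 79 of 105 (75.2%) below both, against 27.5%. With 1 library in SARATg AA, and its genotype label in doubt, this carries no replicate error.

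The genotype comparison asked whether macrophages of SARATg kidneys differed from those of SARAWT kidneys under vehicle. With edgeR 0 of 13087 genes were called (0% called), 537 passed an unadjusted p of 0.05, and DESeq2 called 4. The groups did not overlap for 2168 genes (16.6%). There are only 10 ways to divide these libraries into groups of 2 and 3, so genes often separate by arrangement alone. Markers of other cells moved with genotype: 9 of 9 natural killer cell genes (median log2 fold change 2.66), 12 of 12 B cell genes (1.78) and 14 of 14 endothelial genes (1.13) were above 0, and 7, 6 and 8 of them did not overlap. Natural killer cell genes summed to 106 and 117 CPM in the SARATg vehicle libraries and to 10.6, 34.1 and 19.4 CPM in the SARAWT vehicle libraries, and endothelial genes to 184 and 321 CPM against 123, 47.6 and 147 CPM. B cell genes summed to 6129 and 478 CPM against 1666, 4017 and 1650 CPM, which overlapped. The part of these cells in the genotype comparison was not tested. Zfyve9 was higher in SARATg in all of these libraries, at 115 and 99.1 CPM against 4.83 to 29.6 CPM, but was not called (log2 fold change 2.59). For Ccl8, Trem2 and Ctsd both SARATg vehicle libraries lay below SARAWT vehicle 3, within the range of the SARAWT vehicle group or under it.

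Of the TGF-β pathway none of the 27 genes tested was called between genotypes under vehicle. In the AA comparison without SARAWT vehicle 3, 2 of 23 rose and 2 fell (median log2 fold change 0.00), close to the 6.33% and 6.87% over all genes. Tgfbr1, the type I receptor, stood at 276, 269 and 100 CPM in the SARAWT vehicle libraries and at 98.7, 153 and 139 CPM in the SARAWT AA libraries (-0.92 ± 0.22, adjusted p = 0.0474, edgeR), at 342 and 205 CPM in the SARATg vehicle libraries and at 157 CPM in SARATg AA 1. Zfyve16, a relative of SARA, fell by 0.95 on the log2 scale. Nrros, which holds latent TGF-β1 on macrophages, and Ltbp3, a latent TGF-β binding protein, rose by 1.16 ± 0.17 and 3.85 ± 0.70. Smad2, Smad3 and Smad4, the signal carriers, were not called.

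Between SARATg AA 1 and the SARAWT AA libraries 0 of 13087 genes were called (0% called), 292 passed an unadjusted p of 0.05 and DESeq2 called 4. The same held for AA against vehicle within SARATg (0 called, 533 at an unadjusted p under 0.05, 16 by DESeq2) and for the difference of the AA effect between genotypes (0 called, 340 at an unadjusted p under 0.05, 5 by DESeq2). These tests assume that the lone SARATg AA library varies like the others. The libraries labelled SARATg AA 1 and SARAWT AA 1 also went against their genotype labels, as given above. Whether the AA response of macrophages differs between genotypes could therefore not be decided with these libraries.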

How the data were processed

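The authors deposited UMI counts per gene and cell as 10x matrices, made with Cell Ranger 3.0.2, and the submitters' processing notes also name Seurat 2.3.4 and mm10. The 9 kidney libraries share 1 gene list. The deposited counts were filtered as stated in the report and summed over the macrophages of each library (libraries with at least 10 members), with CPM as the sum per 1000000 UMIs. Sums were tested with edgeR 4.0.16 in R 4.3.3 (filterByExpr, TMM, quasi-likelihood F test, Benjamini-Hochberg threshold 0.05), with DESeq2 1.42.0 as an alternative. The SARAWT comparison used the SARAWT libraries, and the others used all 9. Standard errors belong to log2 fold changes. They were worked back from the edgeR F statistic, as the absolute log2 fold change over the square root of F. Shares were compared by two-sided exact permutation over libraries. Doublets were scored with scrublet in scanpy 1.11.5 and the highest scores marked at 0.8% per 1000 cells. They were kept in the main fits. The edgeR fit was also run on counts simulated from a shared mean profile with a fixed spread. That simulation had no outlying library, free RNA or doublets, so it does not show how the fits perform on these libraries.

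Members, gene lists and the rule for named genes were chosen with earlier results of these data known. The rule took, in each direction, the 12 called genes of largest fitted change, among those whose groups did not overlap and whose mean was at least 10 CPM, leaving out the genes of the gate, predicted genes and mitochondrial genes. It was applied over all genes and over genes at least as high in macrophages as in the other cells. Members of the lists with the highest CPM were also named. The second application, and naming genes from the fit without SARAWT vehicle 3, were chosen after seeing the data, and list members named beyond the rule (such as Il1a, Osm, Lpl, Cd36, Isg15 and the Smad genes) were picked with their values seen. Skin libraries were not analysed here. Intervals cover counting error only. Gene positions are those of GENCODE vM21 and promoters those of RefSeq.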

Additional observations from a re-analysis of the deposited data

How the results depend on the processing

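Limits were the small number of libraries, 1 or 2 per SARATg group, labels in doubt for SARAWT AA 1, SARATg AA 1 and SARAWT vehicle 3, and unequal depth, sex and tubule RNA, which were not separated from treatment. Causes of the differences below were not tested. With all SARAWT libraries the count of called genes was 0 in edgeR and 69 in DESeq2, and 0 to 1473 over the fits that left out 1 library, where only leaving out SARAWT vehicle 3 gave any. Without that library the 1473 calls became 654 without predicted doublets and 695 over genes at least as high in macrophages (768 with DESeq2). They became 149 with Xist-positive libraries as a covariate, which here marks SARAWT vehicle 2 alone. Leaving out Xist-positive libraries is here the same fit as leaving out SARAWT vehicle 2. The replicate block gave 0 calls, and leaving out another library gave 0 to 2159. With library totals alone the split was 481 higher and 1111 lower, and the median over all genes moved by -0.147 on the log2 scale (-0.120 for AA against vehicle in SARATg). The 163 genes called without SARAWT vehicle 3 that the naming rule or the lists hold kept their sign in each alternative of that fit, 18 at most. They were chosen by that fit and the alternatives reuse its libraries, so a kept sign is no support. Fewer alternatives called them again, such as 5 of 18 for F13a1 and 16 of 18 for Ccl8. With SARAWT vehicle 3 put back Mt2 turned from 3.23 to -0.02 on the log2 scale. For the SARATg contrasts DESeq2 called 4 (vehicle), 4 (AA), 16 (AA against vehicle) and 5 (difference of effects), and leaving out a library gave 0 to 0, 0 to 5, 0 to 5 and 0 to 3, with the calls coming without SARAWT vehicle 2.

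The share of macrophages changed sign to 0.910 percentage points without SARAWT AA 2 and 2.38 without SARAWT vehicle 3, and ran from -3.05 to 2.38 over libraries left out. The genotype difference under vehicle ran from 1.26 to 6.52 and was -3.89 as a share of Ptprc-positive cells. The cycling difference, 1.51 percentage points, ran from 0.890 to 2.43 over libraries left out, and was 7.78 without thinning, 2.63 when thinned to 2000 UMIs and 2.95 at a minimum of 1 UMI. Deviations of same-numbered SARAWT libraries from their group means had correlations over genes of -0.325, 0.243 and 0.322. Those of differently numbered SARAWT libraries ran from -0.556 to 0.508, so these values cannot decide whether the numbers pair samples. With the replicate block the share difference was -0.799 (exact sign-flip p = 0.75), the genotype share difference 6.52 (p = 0.5), the cycling difference 1.51 (p = 0.5), and each of the 6 gene comparisons gave 0 calls. The planned covariate for different gene lists was not run, since the kidney libraries share 1 list.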

Other observations

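Without the library labelled SARAWT vehicle 3, 3 of 14 Nrf2 target and metallothionein genes rose (Mt1, Mt2 and G6pdx) and 1 fell (Gclm, of glutathione synthesis, by 2.11 on the log2 scale), against 6.33% and 6.87% of all genes. Mt2, a metallothionein that binds zinc and copper, read 5.09, 5.59 and 115 CPM in SARAWT vehicle 1, 2 and 3 and 78.0, 15.6 and 39.0 CPM in SARAWT AA 1, 2 and 3 (log2 fold change 3.23 ± 0.71, SE). With all 6 SARAWT libraries the Mt2 change was -0.02 ± 1.21 (adjusted p = 0.997, edgeR), so it rests on leaving that library out. Mt1 changed by 1.90 ± 0.30 without it and 0.35 ± 0.77 with it. Slc40a1, the iron exporter ferroportin, fell from 15.7 and 23.5 CPM to 3.55, 1.87 and 6.65 CPM (5.20 CPM in SARAWT vehicle 3), while Fth1 and Ftl1, the ferritin chains, were not called. Of 16 iron and haem genes 4 rose and 1 fell, against 6.33% and 6.87% of all genes. Among 3992 genes at least as high in macrophages 566 rose. With so few members, no result is read from the count of the Nrf2 or the iron list.

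Cp, ceruloplasmin, a copper-carrying ferroxidase, read 5.09 and 10.6 CPM in SARAWT vehicle 1 and 2, 140 CPM in SARAWT vehicle 3 and 73.9, 114 and 165 CPM in the AA libraries (log2 fold change 3.99 ± 0.49, and 1.07 ± 1.13 with all 6 libraries). It read 16.2 and 43.1 CPM in the SARATg vehicle libraries and 63.8 CPM in SARATg AA 1. Hif1a, the oxygen-regulated transcription factor, rose by 1.13 ± 0.17. Of 18 hypoxia and glycolysis genes 3 rose and 1 fell, against 6.33% and 6.87% of all genes. No result is read from this count. The chaperone gene Hsph1 fell by 1.83 on the log2 scale.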
